A study of Mus musculus with 16 samples.

Results

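The desmosome genes described here were the 10 rows of the count tables with the symbols of the epidermal desmosomal cadherins (Dsg1a, Dsg1b, Dsg2, Dsg3, Dsc1, Dsc2 and Dsc3) and of the plaque proteins desmoplakin (Dsp), plakophilin 1 (Pkp1) and plakoglobin (Jup). They were chosen by symbol, out of 23282 rows, and all 10 passed the filter on low counts, which 14854 rows passed. RNA was measured in the skin of 16 male wild-type C57BL/6N mice, 1 library per mouse and 4 mice per group, bought at 3 weeks of age and acclimatised for 1 week. The Cont group ate normal chow. The LowAhR group ate a diet low in ligands of the aryl hydrocarbon receptor (AhR), a transcription factor activated by dietary and environmental small molecules, for 12 weeks and lived on paper bedding free of such ligands. The LowAhR+AD group had the same diet and bedding and, after the first 2 weeks, dorsal skin painted with 1% dinitrochlorobenzene (DNCB), a hapten used to induce a dermatitis that resembles atopic dermatitis (AD). DNCB was applied 2 times a week for 10 weeks. The LowAhR+AD+BJ group had diet, bedding and DNCB and was gavaged daily with Bojungikgi-tang (BJIKT), a herbal extract, at 1 g/kg in water. BJIKT was also given for 10 weeks, alongside DNCB. The groups analysed here held no mice given DNCB on normal chow and none given BJIKT without DNCB, so an effect of DNCB was measured on the low ligand diet only. The sources used here do not say whether mice without BJIKT were gavaged with water, or mice without DNCB painted with its solvent. Gavage and solvent therefore cannot be told apart from BJIKT and DNCB.

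Desmosomes are buttons on the cell membrane that hold keratinocytes together. The outer parts of desmogleins and desmocollins, both calcium-dependent cadherins, adhere in the gap between neighbouring cells, their tails bind plakoglobin and plakophilins, and desmoplakin ties this plaque to the keratin filaments. In the epidermis the cadherins change with depth, since desmoglein 3 and desmocollin 3 are known for the basal and lower layers, and desmoglein 1 and desmocollin 1 for the differentiated layers above, while desmoglein 2 and desmocollin 2 are the widely distributed forms of simple epithelia and of hair follicles.

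The libraries came from whole skin, so fewer cells of a type and less RNA per cell cannot be told apart. Library totals were 7080508 to 8051425 counts in Cont, 7436315 to 8773876 in LowAhR, 11336051 to 13467477 in LowAhR+AD and 10614393 to 12999055 in LowAhR+AD+BJ, and the groups with DNCB did not overlap those without it, so that depth and DNCB cannot be told apart. LowAhR+AD replicate 1 stood apart from the others. Of its genes predicted at 20 to 40 counts from the other libraries of its group, 32.6% had a count of 0. The share was 1.03% to 13.8% in the other 15 libraries, each predicted from its own group. Values without LowAhR+AD replicate 1 are given below for each desmosome gene that was called or that moved by over 1.5 times. The basal keratinocyte list (Krt5, Krt14 and 4 others) was detected in every group. Its summed level was 2450.5 to 3287 counts per 1000000 counts (CPM, with library sizes scaled by TMM factors) in Cont, 2699 to 3471 in LowAhR, 5652 to 10474 in LowAhR+AD and 4938 to 7590 in LowAhR+AD+BJ, with no marker at 0 in all 4 libraries of a group.

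Promoters, read from the RefSeq table for GRCm38.p6, are given for 2 of the 10 genes, Dsp and Jup. The cadherin genes were left out of this step, and the source held no entry for Pkp1. These promoters are shown because the groups differ in AhR ligands. Each runs 5′ to 3′ on the strand of its gene, from 250 bases before the start of transcription, with the AhR core motif GCGTG, read on either strand, in capitals. The window of Dsp was chr13:38151044-38151343 (plus strand) and that of Jup was chr11:100397741-100398040 (minus strand).
Dsp: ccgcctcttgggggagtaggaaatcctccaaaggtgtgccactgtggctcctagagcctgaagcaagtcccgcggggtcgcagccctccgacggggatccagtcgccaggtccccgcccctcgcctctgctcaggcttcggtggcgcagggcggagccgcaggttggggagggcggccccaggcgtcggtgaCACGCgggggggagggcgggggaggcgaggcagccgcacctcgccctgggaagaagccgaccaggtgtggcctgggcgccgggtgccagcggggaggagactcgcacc
Jup: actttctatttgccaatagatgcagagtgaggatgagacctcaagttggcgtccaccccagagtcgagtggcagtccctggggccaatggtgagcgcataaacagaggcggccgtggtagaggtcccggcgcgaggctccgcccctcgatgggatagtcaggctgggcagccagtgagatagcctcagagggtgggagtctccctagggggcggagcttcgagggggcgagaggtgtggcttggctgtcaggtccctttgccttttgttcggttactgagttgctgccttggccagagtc
The Dsp window held 1 match, at position -58 and on the opposite strand, so that it reads CACGC here. The Jup window held 0. The AP-1 motif TGANTCA had 0 matches in both. GCGTG was found on either strand in 32.386% of the 32851 promoters of this length in the table and TGANTCA in 7.808%, so a single match in such a window is common, and nothing follows from these letters about binding.

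The 7 cadherin genes lie side by side in 1 cluster of 9 genes, on chromosome 18 from 19960930 to 20604521 (643.6 kb, GRCm38, the assembly also called mm10). Their order along the chromosome was Dsc3, Dsc2, Dsc1, Dsg1c, Dsg1a, Dsg1b, Dsg4, Dsg3 and Dsg2. The plaque genes lie elsewhere, Pkp1 on chromosome 1 (135871395 to 135919207, minus strand), Jup on chromosome 11 (100368958 to 100397763, minus strand) and Dsp on chromosome 13 (38151294 to 38198577, plus strand). QuantSeq reads come from the 3′ ends of transcripts. Within the last 500 bases of each annotated transcript no 75-base stretch was shared with another gene for 9 of the 10 genes. For Dsg1b 0.9% of the stretches were shared with Dsg1a, its near copy, and the 3′ end of Dsg2 overlapped the antisense gene Gm16090, whose reads cannot be told from those of Dsg2 without strand.

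**Figure D1:**
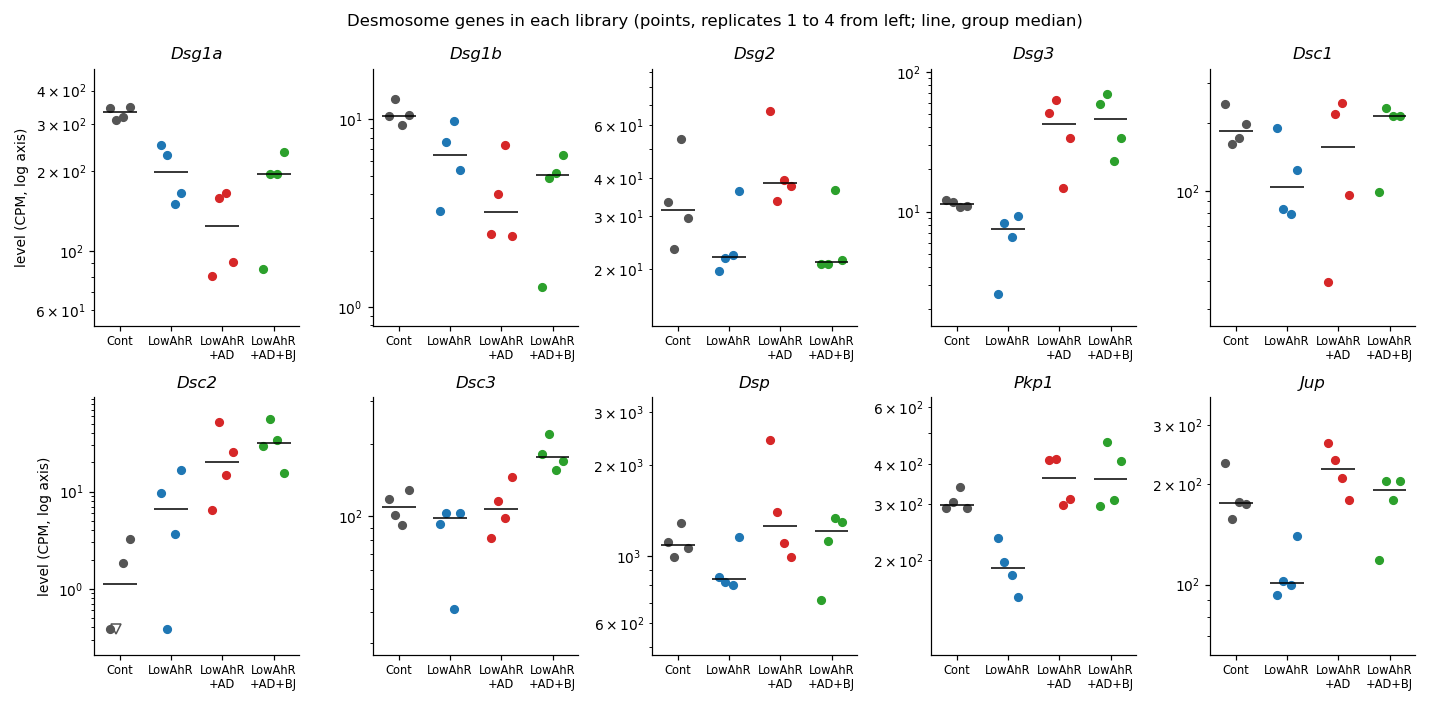
Level of each desmosome gene in each library, in CPM on a log axis, for the 4 groups. Points are libraries with replicates 1 to 4 from left to right, lines are group medians, and the open triangle marks a library with 0 counts of Dsc2, drawn at the level of 3 counts. The 4 Cont libraries of Dsg1a sit between 309.6 and 346 CPM, above all other libraries, and the 4 LowAhR libraries of Pkp1 sit between 154 and 236 CPM, below all others.

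In LowAhR+AD against LowAhR the log2 fold change was above 0 for 8 of 10 desmosome genes, all but Dsg1a and Dsg1b. Against Cont it was above 0 for 7. With DNCB on the low ligand diet, 3 of 10 genes were higher than with the diet alone (Dsg3, Pkp1 and Jup) by edgeR's quasi-likelihood test at an adjusted p under 0.05, and 0 were lower. Of all tested genes 12.6% passed in this comparison, 6.42% higher and 6.21% lower. Against Cont, the LowAhR+AD group had 2 genes higher (Dsg3 and Dsc2) and 1 lower (Dsg1a), beside 21.8% of all genes called, 12.3% higher and 9.47% lower. In the LowAhR+AD+BJ group 3 genes were higher than in LowAhR (Dsg3, Dsc3 and Pkp1), beside 6.77% of all genes called, 3.64% higher and 3.12% lower. Libraries were also set apart by rank. In LowAhR+AD against LowAhR, Dsg3, Pkp1 and Jup were higher in every library (3 genes, beside 8.92% of all genes). Against Cont, Dsg3 and Dsc2 were higher and Dsg1a and Dsg1b lower in every LowAhR+AD library (2 genes each way, beside 12.9% and 11.8% of all genes), and in LowAhR+AD+BJ against LowAhR Dsg3, Dsc3 and Pkp1 were higher (3 genes, beside 8.91%). The comparisons share the LowAhR+AD or the LowAhR libraries, so their counts stand side by side and are not independent. The median log2 fold change of the 10 genes was 0.77 for LowAhR+AD against LowAhR, beside 0.04 over all tested genes, 0.24 against Cont, beside 0.05, and 0.69 for LowAhR+AD+BJ against LowAhR, beside 0.01.

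The low ligand diet and bedding without DNCB gave 0 calls in the edgeR fit of all 16 libraries. In LowAhR against Cont, 0 of the 10 desmosome genes and 0% of all 14854 genes passed the edgeR test, and limma voom also called 0 genes. Most levels were nonetheless on 1 side of Cont. The log2 fold change was below 0 for 9 of 10 genes, with a median of -0.69 beside 0.03 over all genes, and for Dsg1a, Dsg3, Pkp1 and Jup every LowAhR library was below every Cont library, a pattern found in 5.63% of all genes. At an unadjusted p under 0.05 there were 4 genes, Dsg1a, Pkp1 and Jup lower and Dsc2 higher, where 13.7% of all genes had such a p, 5.83% lower and 7.84% higher. DESeq2 called 2 of them, Pkp1 with an adjusted p of 0.0432 and Jup with an adjusted p of 0.0313, among 491 genes in all. An edgeR model of the 8 libraries compared called 250 genes (1.84%). With at least 10 counts in every library edgeR called 45 (0.440%). Both settings called 0 desmosome genes.

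Markers of other tissues moved in the same comparison. The summed level of the 6 adipocyte markers was 1643 to 3724 CPM in Cont and 4972 to 9302 CPM in LowAhR, without overlap, and 5 of 6 were higher at an unadjusted p under 0.05, with 0 of 6 past the adjusted threshold and none at 0 in all 4 libraries of a group. All 14 hair follicle markers (7 of the inner root sheath and companion layer, 7 of the shaft) were also higher at an unadjusted p under 0.05, with 0 past the adjusted threshold. For these, unlike the adipocyte sum, the groups overlapped, and 0 of the 14 were higher in every LowAhR library. The inner root sheath and companion layer sum was 26.8 to 911 CPM in Cont and 119 to 8070 CPM in LowAhR. The shaft sum was 2.05 to 112 CPM and 3.58 to 2846 CPM. Their part in the lower levels of the desmosome genes was not tested.

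**Figure D2:**
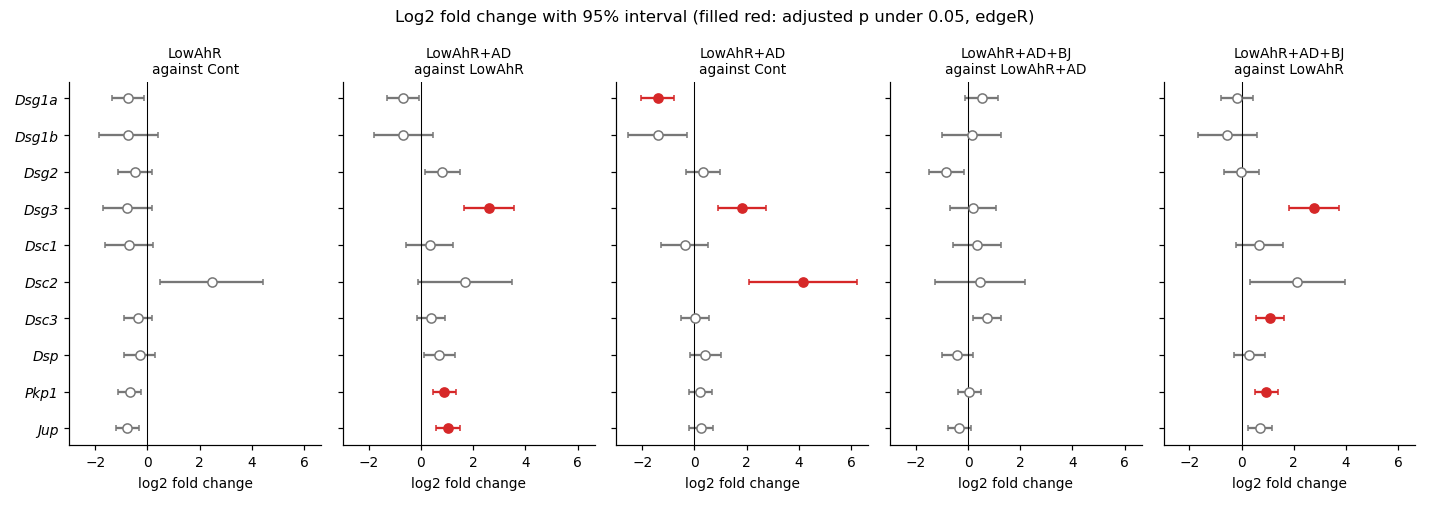
Log2 fold change of each desmosome gene in 5 comparisons, with its 95% interval from the edgeR fit of all 16 libraries. Filled red points have an adjusted p under 0.05. The red points are 3 in LowAhR+AD against LowAhR, 3 in LowAhR+AD against Cont, 3 in LowAhR+AD+BJ against LowAhR and 0 in both other comparisons.

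Among the desmogleins, Dsg1a and Dsg3 moved in opposite directions from Cont to LowAhR+AD. Dsg1a encodes a desmoglein 1, the adhesive cadherin of the upper epidermis. Its levels were 345, 309.6, 318 and 346 CPM in the Cont replicates 1 to 4 and 249, 229.9, 150.0 and 165 CPM in LowAhR. They were 80.7, 158, 166 and 90.7 CPM in LowAhR+AD and 85.5, 195, 194 and 234 CPM in LowAhR+AD+BJ. Every library of the other groups lay below the lowest Cont library, while the other 3 groups overlapped each other. LowAhR+AD was lower than Cont by a log2 fold change of -1.41 (SE 0.30, n = 4 and 4, edgeR adjusted p = 0.00298), and this call held in each of the 8 fits that left out 1 library, LowAhR+AD replicate 1 included. For LowAhR against Cont the log2 fold change was -0.73 (SE 0.30, edgeR adjusted p = 0.264) and for LowAhR+AD against LowAhR it was -0.68 (SE 0.30, edgeR adjusted p = 0.139).

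Some markers of the granular layer, where keratinocytes finish differentiating, fell beside Dsg1a. Of the 6 listed, 3 were lower and 1 higher in LowAhR+AD than in Cont at an adjusted p under 0.05. Their summed level was 7967 to 11146 CPM in Cont, 2637 to 5945 in LowAhR, 363 to 5228 in LowAhR+AD and 273 to 2554 in LowAhR+AD+BJ, and none was at 0 in all 4 libraries of a group. Their part in the result of Dsg1a was not tested.

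Dsg3, the desmoglein of the basal layer and the antigen of pemphigus vulgaris, had groups that stood in a clear order. Its levels were 12.2, 11.8, 10.7 and 11.0 CPM in Cont and 2.57, 8.32, 6.63 and 9.31 CPM in LowAhR. They were 50.6, 62.8, 14.8 and 33.7 CPM in LowAhR+AD and 59.1, 68.7, 23.0 and 33.4 CPM in LowAhR+AD+BJ. Each LowAhR library was below each Cont library and each library with DNCB was above both, with replicate 3 the lowest in both DNCB groups. LowAhR+AD was 6.01-fold above LowAhR (log2 fold change 2.59, SE 0.46, n = 4 and 4, edgeR adjusted p = 0.00205). Against Cont the rise was 3.54-fold (log2 fold change 1.82, SE 0.44, edgeR adjusted p = 0.00694). LowAhR+AD+BJ was 6.84-fold above LowAhR (log2 fold change 2.77, SE 0.46, edgeR adjusted p = 0.00244). All 3 calls held when any 1 library was left out.

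Activated and some basal keratinocyte markers rose in the same comparison. All 6 activated keratinocyte markers (Krt6a, Krt6b, Krt16, Sprr1b, Stfa1 and S100a8) were higher in LowAhR+AD than in LowAhR, and their summed level went from 151 to 704 CPM in LowAhR to 11206 to 30634 CPM in LowAhR+AD. Of the 6 basal markers 3 were higher and 0 lower, of the 6 suprabasal markers 0 were higher and 0 lower (4 of 6 with a log2 fold change below 0), and of the 6 granular layer markers 1 was higher and 2 lower. The suprabasal sum was 6029 to 11715 CPM in LowAhR and 1106 to 12562 CPM in LowAhR+AD. Per count of Krt14, a basal keratin, Dsg3 had 0.0120 to 0.0197 in Cont, 0.00346 to 0.0104 in LowAhR, 0.00452 to 0.0190 in LowAhR+AD and 0.00686 to 0.0151 in LowAhR+AD+BJ, so that LowAhR lay below Cont and both DNCB groups overlapped LowAhR. Per count of Krt5, another basal keratin, it had 0.00745 to 0.0128, 0.00226 to 0.00820, 0.00818 to 0.0301 and 0.0148 to 0.0419 in the same order, and LowAhR+AD+BJ lay above both groups without DNCB. The 0.00818 was that of LowAhR+AD replicate 1, the library that stood apart. The other LowAhR+AD libraries had 0.00965 to 0.0301, above all of LowAhR. The part of these markers in the rise of Dsg3 was not tested.

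Dsg1b and Dsg2 passed in no comparison in the edgeR fit of all 16 libraries. Dsg1b, the near copy of Dsg1a, was at 10.4, 12.8, 9.38 and 10.5 CPM in Cont, 3.25, 7.55, 9.76 and 5.37 CPM in LowAhR, 2.44, 4.02, 7.31 and 2.41 CPM in LowAhR+AD and 1.28, 4.89, 5.21 and 6.46 CPM in LowAhR+AD+BJ. All LowAhR+AD libraries were below all Cont libraries, with a log2 fold change of -1.41 (SE 0.54, edgeR adjusted p = 0.0718), the same size as for Dsg1a with a wider error at its 14 to 99 counts per library. Dsg2, the widely distributed desmoglein, was at 33.2, 23.3, 53.9 and 29.5 CPM in Cont and 19.7, 21.8, 22.2 and 36.3 CPM in LowAhR. It was at 66.6, 33.6, 39.4 and 37.6 CPM in LowAhR+AD and 20.8, 20.8, 36.6 and 21.5 CPM in LowAhR+AD+BJ. The groups overlapped, and LowAhR+AD against LowAhR had a log2 fold change of 0.82 (SE 0.31, edgeR adjusted p = 0.0909), and 0.56 (SE 0.30, edgeR adjusted p = 0.257) without LowAhR+AD replicate 1, its highest library. Without LowAhR replicate 4, the highest library of LowAhR, Dsg2 was called higher in this comparison (edgeR adjusted p = 0.0439).

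**Figure D3:**
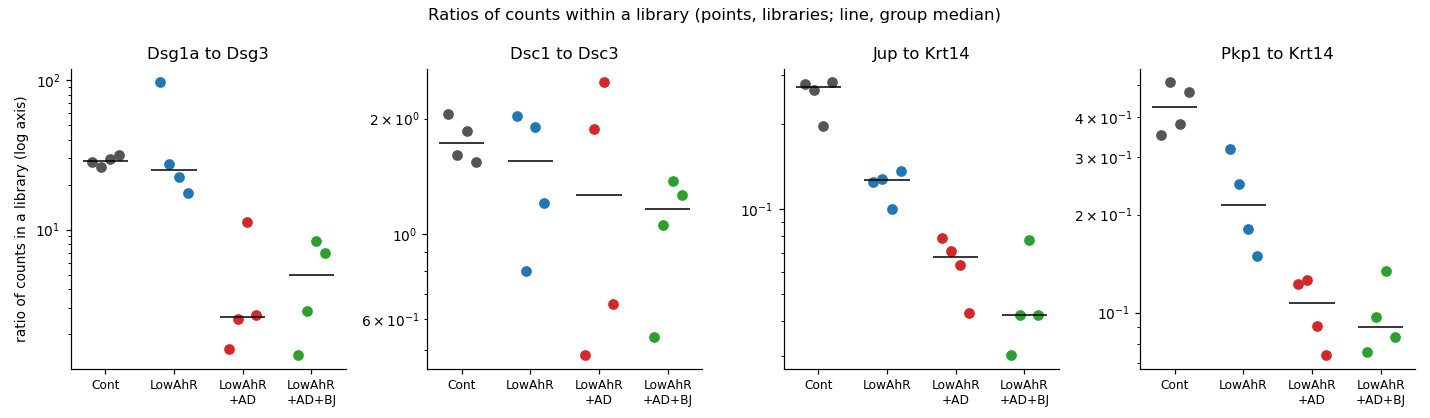
Ratios of counts within each library for Dsg1a to Dsg3, Dsc1 to Dsc3, Jup to Krt14 and Pkp1 to Krt14, on log axes, by group. Points are libraries and lines are group medians. The ratio of Dsg1a to Dsg3 is 17.7 or more in all libraries without DNCB and 11.2 or less in all libraries with it.

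Set against each other within a library, the upper layer desmoglein Dsg1a and the lower layer desmoglein Dsg3 changed their ratio, a measure chosen after the levels were seen and given without a test. Dsg1a had 26.3 to 31.4 counts per count of Dsg3 in Cont and 17.7 to 96.9 in LowAhR, but 1.59 to 11.2 in LowAhR+AD and 1.45 to 8.44 in LowAhR+AD+BJ. The libraries with DNCB did not overlap those without. Of the summed counts of the 7 cadherins, Dsg1a made up 45.3% to 49.9% in Cont, 35.8% to 50.6% in LowAhR, 21.0% to 28.4% in LowAhR+AD and 17.9% to 33.8% in LowAhR+AD+BJ. The desmocollin pair showed no such separation. Dsc1 had 1.54 to 2.05 counts per count of Dsc3 in Cont, 0.804 to 2.03 in LowAhR, 0.485 to 2.49 in LowAhR+AD and 0.541 to 1.38 in LowAhR+AD+BJ.

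Of the desmocollins, Dsc2 had the widest range. It was near the limit of detection in Cont, with 3, 0, 15 and 27 counts in replicates 1 to 4, which is 0.385, 0, 1.85 and 3.23 CPM, and the count of 0 allows up to 0.388 CPM (3 counts, for counting error only). Its levels were 9.74, 0.384, 3.64 and 16.8 CPM in LowAhR, 6.41, 52.3, 14.7 and 25.7 CPM in LowAhR+AD and 29.5, 55.9, 34.0 and 15.5 CPM in LowAhR+AD+BJ. Cont and LowAhR+AD did not overlap, whereas LowAhR overlapped both, with 2 of 4 LowAhR+AD libraries above all of LowAhR. LowAhR+AD was above Cont by a log2 fold change of 4.15 (SE 0.98, n = 4 and 4, edgeR adjusted p = 0.00611), a call that held when any 1 library was left out but not with limma voom, where the adjusted p was 0.0677. Against LowAhR the log2 fold change of LowAhR+AD was 1.69 (SE 0.86, edgeR adjusted p = 0.206) and that of LowAhR+AD+BJ was 2.14 (SE 0.87, edgeR adjusted p = 0.151).

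Hair follicle markers moved with Dsc2. The 7 markers of the inner root sheath and companion layer (keratins and trichohyalin) summed to 26.8, 223, 269 and 911 CPM in Cont replicates 1 to 4, and to 2931, 119, 688 and 8069.8 CPM in LowAhR. In LowAhR+AD they summed to 5903, 19786, 9986 and 12139.7 CPM and in LowAhR+AD+BJ to 5469, 15183, 14626 and 13715 CPM. Within LowAhR and within LowAhR+AD the libraries stood in the same order for Dsc2 and for this sum. Within LowAhR+AD+BJ and within Cont they did not. In Cont, replicate 1 had the lowest sum and replicate 2 the count of 0 of Dsc2. All 7 of these markers and all 7 hair shaft keratins were higher in LowAhR+AD than in Cont at an adjusted p under 0.05, and none was at 0 in all 4 libraries of a group. Their part in the result of Dsc2 was not tested. Dsg4, the desmoglein of the hair shaft, had 36 counts in all 16 libraries together and 0 in 11 of them, and was not tested.

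**Figure D4:**
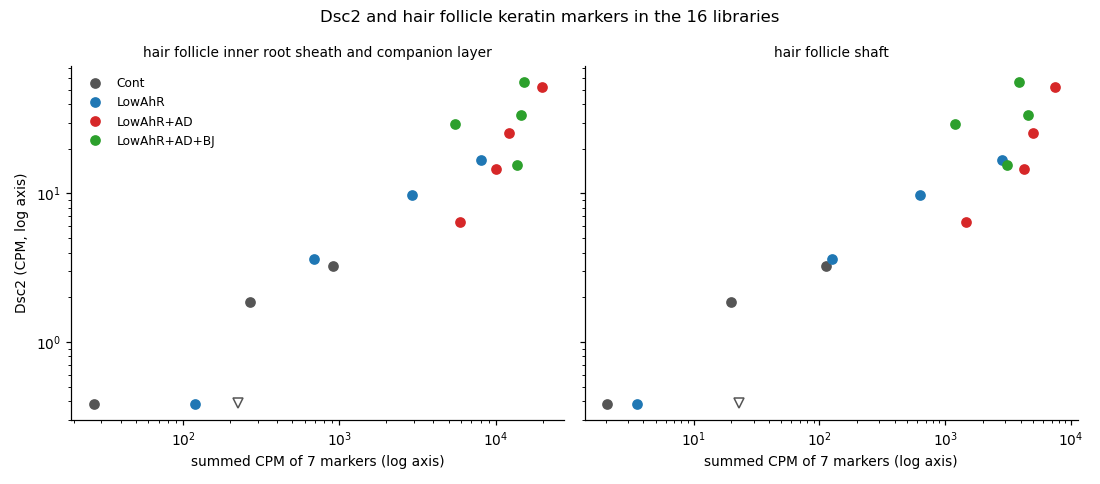
Dsc2 level against the summed level of 7 markers of the hair follicle inner root sheath and companion layer (left) and of 7 hair shaft keratins (right), both in CPM on log axes, in the 16 libraries, coloured by group. The open triangle is the Cont library with 0 counts of Dsc2, drawn at the level of 3 counts. Within LowAhR and LowAhR+AD the libraries stand in the same order on both axes of the left panel, and within LowAhR+AD+BJ they do not.

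Dsc3, the desmocollin of the basal layer, stood out in the BJIKT group. Its levels were 118, 101, 91.8 and 129 CPM in Cont and 93.3, 103, 41.5 and 103 CPM in LowAhR. They were 81.4, 116, 98.3 and 146 CPM in LowAhR+AD and 182, 220.4, 156 and 169 CPM in LowAhR+AD+BJ. The 4 LowAhR+AD+BJ libraries were above all 12 others, and those 12 overlapped. Against LowAhR, which lacked both DNCB and BJIKT, the rise was 2.13-fold (log2 fold change 1.09, SE 0.26, n = 4 and 4, edgeR adjusted p = 0.0172), with an adjusted p of 0.0697 without LowAhR+AD+BJ replicate 2. Against LowAhR+AD, which had DNCB without BJIKT, Dsc3 was not called (log2 fold change 0.72, SE 0.26, edgeR adjusted p = 0.498). LowAhR+AD did not differ detectably from Cont (log2 fold change 0.01, 95% interval -0.53 to 0.55).

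Dsc1, the desmocollin of the upper layers, passed in no comparison and ranged widely between mice with DNCB. It was at 242, 162, 171 and 198 CPM in Cont, 189.8, 83.1, 78.8 and 124 CPM in LowAhR, 39.5, 218, 244 and 96.2 CPM in LowAhR+AD and 98.7, 232, 215 and 214 CPM in LowAhR+AD+BJ. The lowest value was that of LowAhR+AD replicate 1, the library that stood apart. All groups overlapped, and the log2 fold change of LowAhR+AD against LowAhR was 0.33 (SE 0.43, edgeR adjusted p = 0.663). Leaving out that library gave 0.65, and leaving out replicate 3 of the same group gave -0.01.

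Of the 10 genes, Pkp1 and Jup encode armadillo proteins of the plaque, and the RNA of both was lowest in LowAhR and higher with DNCB. Pkp1, which clusters desmoplakin and the cadherins and is lost in ectodermal dysplasia with skin fragility, was at 292, 304, 339.8 and 292 CPM in Cont and 236, 199, 179.8 and 154 CPM in LowAhR. It was at 410.2, 415, 297 and 310.4 CPM in LowAhR+AD and 295, 468, 308 and 409 CPM in LowAhR+AD+BJ. The 4 LowAhR libraries were below all 12 others. LowAhR+AD was 1.87-fold above LowAhR (log2 fold change 0.90, SE 0.21, n = 4 and 4, edgeR adjusted p = 0.0103), which became an adjusted p of 0.0570 in a model of these 8 libraries alone. LowAhR+AD+BJ was 1.93-fold above LowAhR (log2 fold change 0.95, SE 0.21, edgeR adjusted p = 0.0121), with an adjusted p of 0.0575 without LowAhR+AD+BJ replicate 2. LowAhR+AD and Cont overlapped, with a log2 fold change of 0.22 (95% interval -0.22 to 0.66).

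Jup encodes plakoglobin, shared by desmosomes and adherens junctions. Its levels were 231, 157, 176 and 174 CPM in Cont and 92.9, 102, 99.8 and 140.1 CPM in LowAhR. They were 265, 236, 208 and 179 CPM in LowAhR+AD and 119, 204, 179 and 205 CPM in LowAhR+AD+BJ. LowAhR lay below Cont and LowAhR+AD without overlap, and LowAhR+AD+BJ replicate 1 fell within the range of LowAhR. LowAhR+AD was 2.04-fold above LowAhR (log2 fold change 1.03, SE 0.22, n = 4 and 4, edgeR adjusted p = 0.00604), called also when any 1 library was left out. LowAhR+AD+BJ against LowAhR had a log2 fold change of 0.70 (SE 0.22, edgeR adjusted p = 0.0615). Jup was called there by DESeq2 (adjusted p = 0.0277) and by edgeR with at least 10 counts in every library. It was also called in 2 of the 8 edgeR fits that left out 1 library.

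Desmoplakin, the keratin anchor, passed in no comparison. Dsp was at 1116, 990.4, 1282 and 1065 CPM in Cont, 852, 820.2, 799 and 1160.1 CPM in LowAhR, 2426, 1400.3, 1104 and 995 CPM in LowAhR+AD and 715, 1125, 1336 and 1297 CPM in LowAhR+AD+BJ. The highest library was LowAhR+AD replicate 1, and the groups overlapped. LowAhR+AD against LowAhR had a log2 fold change of 0.71 (SE 0.28, edgeR adjusted p = 0.109), and 0.36 (SE 0.23, edgeR adjusted p = 0.353) without that library.

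Keratin and non-epidermal markers moved beside these plaque genes. Krt14 was at 742 to 1026 CPM in LowAhR and 3269 to 4193 CPM in LowAhR+AD, and Krt5, its partner, at 1014 to 1233 and 1530.0 to 6185 CPM. Per count of Krt14, Jup had 0.198 to 0.282 in Cont, 0.100 to 0.136 in LowAhR, 0.0426 to 0.0790 in LowAhR+AD and 0.0304 to 0.0780 in LowAhR+AD+BJ, so that this ratio was lower with DNCB where the level in CPM was higher. For Pkp1 the ratio in the same order of groups was 0.352 to 0.511, 0.150 to 0.318, 0.0740 to 0.126 and 0.0754 to 0.134. Per count of Krt5 the LowAhR and LowAhR+AD groups overlapped for both genes, at 0.0817 to 0.114 and 0.0428 to 0.136 for Jup and 0.125 to 0.207 and 0.0663 to 0.199 for Pkp1. The lowest LowAhR+AD ratios and its highest Krt5 level were those of replicate 1. The other LowAhR+AD libraries, at 0.0839 to 0.136 for Jup and 0.146 to 0.199 for Pkp1, still overlapped LowAhR. All 7 skeletal muscle markers and 5 of 6 adipocyte markers were lower in LowAhR+AD than in LowAhR. With the muscle, hair follicle and fat markers left out of the library sizes, the same 3 genes (Dsg3, Pkp1 and Jup) were called in that comparison. The part of the keratins in these results was not tested.

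BJIKT was compared with no BJIKT under diet and DNCB. In LowAhR+AD+BJ against LowAhR+AD, 0 of 10 desmosome genes and 0% of all genes passed the edgeR test. DESeq2 called 0 of the 10 and 17 of all genes, and limma voom called 0. At an unadjusted p under 0.05 there were 2 of the 10 genes, beside 9.46% of all genes, 4.51% higher and 4.95% lower. Dsc3 was higher without overlap between the groups, as were 2.42% of all genes, with a log2 fold change of 0.72 (95% interval 0.18 to 1.26, edgeR adjusted p = 0.498). Dsg2 was lower with overlap, with a log2 fold change of -0.83 (95% interval -1.49 to -0.17, edgeR adjusted p = 0.499).

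The intervals, from the fit of all 16 libraries, show which sizes of change this comparison could resolve. For Dsg1a the log2 fold change was 0.52 (95% interval -0.10 to 1.14), with the lowest libraries of the groups at 80.7 and 85.5 CPM. For Dsg3 it was 0.19 (95% interval -0.70 to 1.07), for Pkp1 0.05 (95% interval -0.39 to 0.49) and for Jup -0.33 (95% interval -0.79 to 0.13). The widest interval was that of Dsc2, from -1.28 to 2.18. A 2-fold change in either direction lay outside the interval for Pkp1, Jup and, narrowly, Dsp. A 2-fold rise lay inside it for Dsg1a, Dsg1b, Dsg3, Dsc1, Dsc2 and Dsc3, and a 2-fold fall lay inside it for Dsg2 and Dsc2.

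The calls of the desmosome genes that use the LowAhR+AD group were also made without its replicate 1. Against LowAhR, the log2 fold change was then 2.46 for Dsg3 (edgeR adjusted p = 0.00324), 0.83 for Pkp1 (edgeR adjusted p = 0.0195) and 0.93 for Jup (edgeR adjusted p = 0.0108). Against Cont it was -1.27 for Dsg1a (edgeR adjusted p = 0.00557), 1.69 for Dsg3 (edgeR adjusted p = 0.0124) and 4.46 for Dsc2 (edgeR adjusted p = 0.00228). The 6 calls therefore stood without this library. Several uncalled differences moved towards 0. In LowAhR+AD+BJ against LowAhR+AD the log2 fold change of Dsp went from -0.41 to -0.07, that of Dsg1a from 0.52 to 0.35, that of Dsc1 from 0.35 to 0.02 and that of Dsc2 from 0.45 to 0.11. Dsg1b went from 0.14 to -0.05, and Dsg3 and Pkp1 moved away from 0, from 0.19 to 0.30 and from 0.05 to 0.11. Against Cont, LowAhR+AD went from 0.41 to 0.06 for Dsp, from 0.34 to 0.06 for Dsg2, from 0.26 to 0.16 for Jup, from 0.22 to 0.14 for Pkp1 and from -0.37 to -0.06 for Dsc1, and Dsc3 from 0.01 to 0.12.

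Other genes of the desmosome and of neighbouring junctions were taken from lists that do not include the 10 genes above. Of 9 other desmosome and corneodesmosome genes 8 were tested. Plakophilin 3 (Pkp3), which binds most of the desmosomal cadherins, rose in LowAhR+AD against LowAhR (log2 fold change 1.14, SE 0.27, edgeR adjusted p = 0.0113) and against Cont (1.43, SE 0.27, edgeR adjusted p = 0.00154). Its levels were 129 to 241 CPM in Cont, 143 to 354 in LowAhR and 437 to 591 in LowAhR+AD. Periplakin (Ppl), a plakin of the cornified envelope, was lower in LowAhR+AD than in Cont (-1.43, SE 0.31, edgeR adjusted p = 0.00333). The tetraspan protein Perp, envoplakin (Evpl), corneodesmosin (Cdsn), Dsg1c and Pkp2 passed in no comparison, although without LowAhR+AD replicate 1 Cdsn was higher than in LowAhR (0.97, edgeR adjusted p = 0.0245) and than in Cont (1.07, edgeR adjusted p = 0.00681).

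**Figure D5:**
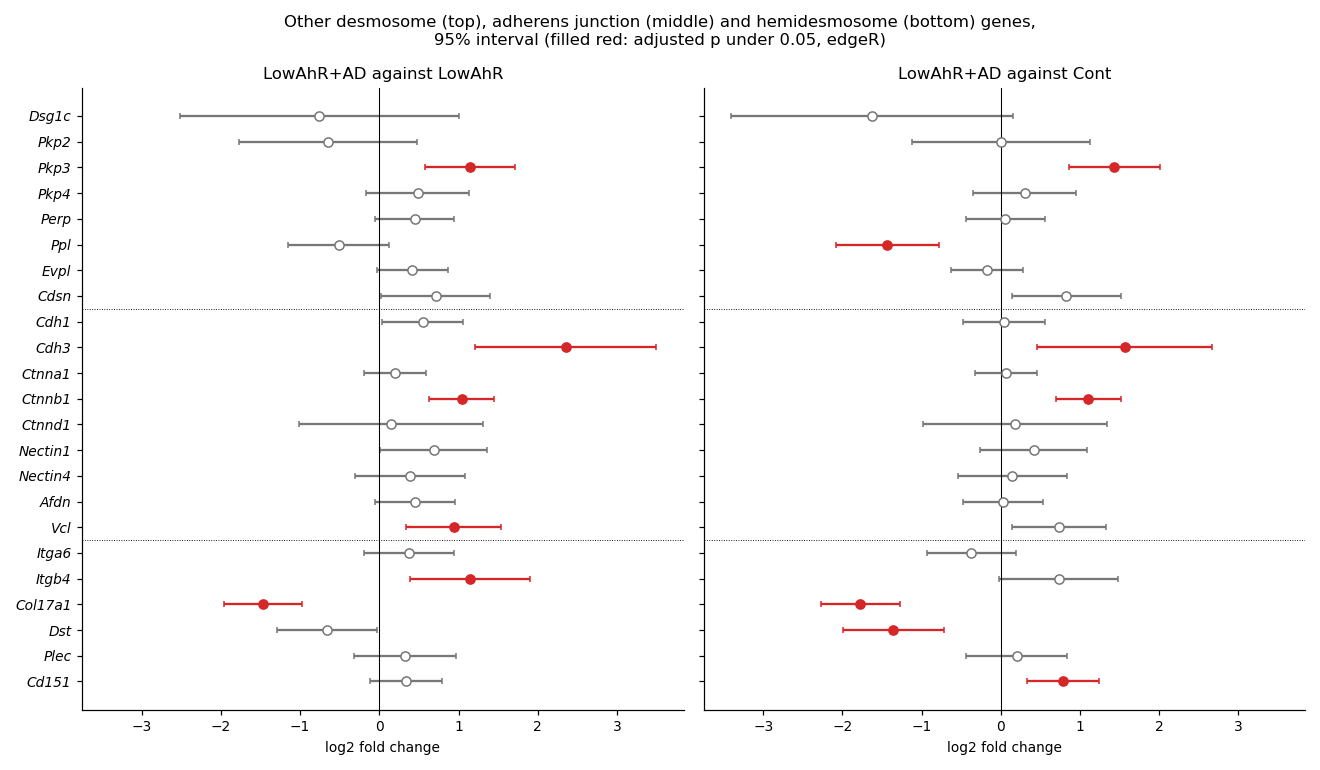
Log2 fold change with its 95% interval for other desmosome genes (top), adherens junction genes (middle) and hemidesmosome genes (bottom) in LowAhR+AD against LowAhR (left) and against Cont (right), from the edgeR fit. Filled red points have an adjusted p under 0.05. Pkp3, Ctnnb1 and Cdh3 are red and to the right in both panels, and Col17a1 is red and to the left in both. Cdh3 is not called against Cont without LowAhR+AD replicate 1.

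In LowAhR+AD against LowAhR, 6.42% of all tested genes were called higher and 6.21% lower. Of the 9 adherens junction genes, which link cadherins to actin, 3 rose and 0 fell in this comparison. They were β-catenin (Ctnnb1, log2 fold change 1.04, edgeR adjusted p = 0.00318), P-cadherin (Cdh3, 2.35, edgeR adjusted p = 0.00977) and vinculin (Vcl, 0.94, edgeR adjusted p = 0.0373). Ctnnb1, the close relative of Jup, was at 465 to 661 CPM in LowAhR and 996 to 1264 CPM in LowAhR+AD. Of the 6 hemidesmosome genes, which anchor basal cells to the basement membrane, integrin β4 (Itgb4, 1.15, edgeR adjusted p = 0.0446) rose and collagen XVII (Col17a1, -1.47, edgeR adjusted p = 0.00106) fell. With LowAhR+AD replicate 1 left out, Cdh3 had a log2 fold change of 1.59 (edgeR adjusted p = 0.0369), Vcl of 0.80 (edgeR adjusted p = 0.0847), Itgb4 of 0.59 (edgeR adjusted p = 0.209) and dystonin (Dst) of -1.14 (edgeR adjusted p = 0.00450, against 0.158 with it). Vcl also lost its call without LowAhR+AD replicate 2 (edgeR adjusted p = 0.0806), and Itgb4 without replicate 2 or 4 (edgeR adjusted p = 0.0516 and 0.0659). Against Cont, Ctnnb1 and Cdh3 of the adherens junction list were higher, and of the hemidesmosome list the tetraspanin Cd151 was higher and Col17a1 and Dst were lower. Of all genes 12.3% were higher and 9.47% lower in LowAhR+AD against Cont. The call of Cdh3 against Cont was lost without LowAhR+AD replicate 1 (0.79, edgeR adjusted p = 0.243) or replicate 2 (1.61, edgeR adjusted p = 0.0615). In LowAhR+AD+BJ against LowAhR, Ctnnb1 was higher (0.81, edgeR adjusted p = 0.0193) and Col17a1 and Dst were lower (-1.08 and -1.06, edgeR adjusted p = 0.0106 and 0.0428). Of all genes 3.64% were higher and 3.12% lower there. In LowAhR against Cont and in LowAhR+AD+BJ against LowAhR+AD, 0 genes of the 3 lists passed. At an unadjusted p under 0.05 there were 4 of 23 tested genes in the first comparison, beside 13.7% of all genes, and 1 of 23 in the second, beside 9.46%.

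The genes whose log2 CPM followed each desmosome gene most closely over the 16 libraries differed between the cadherins. They are given by Pearson's r as a description, since the libraries share groups and depth. Dsg1a was closest to Cldn23 (r = 0.947), Scel and Kprp, of which sciellin (Scel) is a cornified envelope precursor. Dsg3 was closest to Galnt6 (r = 0.925), Chil1 and Cd44, and Cd44 encodes a hyaluronan receptor of keratinocytes and leukocytes. Dsc2 was closest to the hair keratin-associated protein genes Krtap19-3 (r = 0.976) and Krtap19-9b, and to Gm11562. Dsc1 was closest to Lipm (r = 0.863), an epidermal lipase, and Dsc3 to Pak1ip1 (r = 0.873). In the plaque group, Pkp1 was closest to Lypd3 (r = 0.941), Jup to Ripk4 (r = 0.894), a kinase of keratinocyte differentiation, and Dsp to Mki67 (r = 0.897), a marker of dividing cells. Dsg2 was closest to Mob3a (r = 0.855) and Dsg1b to Ablim1 (r = 0.893).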

How the data were processed

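The members and gene lists were chosen with earlier results of these data known. The authors prepared QuantSeq 3′ libraries from total RNA of skin, sequenced single 75-base ends and deposited raw counts per gene symbol for each of 16 libraries. The submitters' processing notes name Bowtie2, bedtools and mm10; the annotation, strand setting and treatment of multiply mapped reads are not given in the sources used here. Coordinates came from GENCODE annotation of GRCm38, and promoters from RefSeq GRCm38.p6. Counts were tested in R 4.3.3 with edgeR 4.0.16, using TMM factors, filterByExpr with a minimum count of 10 and total of 15, and the quasi-likelihood test (glmQLFit, glmQLFTest) in 1 model of 4 groups. Calls were made where the p, adjusted by Benjamini-Hochberg across the 14854 tested genes, was under 0.05. Levels are CPM. Log2 CPM used a prior count of 2. Group and replicate came from the labels; all 10 genes were named with their values, and list genes where called. The chi-square per degree of freedom between replicates was 16.4 to 285, far above sampling noise. The tests were first run on simulated counts. Alternatives included limma 3.58.1 (voom) and DESeq2 1.42.0.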

Additional observations from a re-analysis of the deposited data

Results flagged for a closer look

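Of 40 sets of 4 libraries (10 genes in 4 groups), 3 had a library set apart, by a gap to its nearest neighbour of more than 0.829 of the whole range of log2 CPM, a limit that chance passes in about 5% of sets. Dsg2 in LowAhR+AD+BJ replicate 3 was at 36.6 CPM, above 20.8 to 21.5 CPM in the other 3 libraries (gap 0.941 of the range). Dsc1 in LowAhR+AD+BJ replicate 1 was at 98.7 CPM, below 214 to 232 CPM in the others (gap 0.904 of the range). Dsc3 in LowAhR replicate 3 was at 41.5 CPM, below 93.3 to 103 CPM in the others (gap 0.889 of the range).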

How the results depend on the processing

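With all libraries kept, the alternatives left the number of desmosome genes called within 1.5 times the reported one in every comparison but 1. DESeq2 called 2 in LowAhR against Cont (Pkp1 and Jup lower), beside 3.31% of all genes, where edgeR called 0. With 1 library left out, 0 were called in LowAhR against Cont (beside 0% to 1.04% of all genes) and in LowAhR+AD+BJ against LowAhR+AD (0% to 0.00664%). The number was 3 to 4 in LowAhR+AD against LowAhR (7.39% to 13.2%) and against Cont (16.1% to 23.2%). It was 1 to 4 in LowAhR+AD+BJ against LowAhR (2.75% to 9.75%). The 1 (Dsg3) was without LowAhR+AD+BJ replicate 2, where 2.75% of all genes were called, against 6.77% in the reported fit. Of the single gene fits with all libraries, 473 kept direction and side of the threshold, 8 gained and 2 lost a call and 7 changed sign, and with 1 library left out the numbers were 375, 4, 2 and 19. No difference that was called changed sign. For Dsc3 in LowAhR+AD against Cont the log2 fold change was -0.012 with RLE factors, -0.046 with upper-quartile factors, -0.012 with DESeq2, -0.014 with limma voom and -0.0092 with at least 10 counts in every library. For Dsg2 in LowAhR+AD+BJ against LowAhR it was 0.0031 with limma voom and 9.2e-06 without a filter on low counts. Leaving out 1 library gave -0.15 to 0.12 for Dsc3 in LowAhR+AD against Cont, -0.25 to 0.23 for Dsg2 and -0.33 to 0.068 for Dsg1a in LowAhR+AD+BJ against LowAhR, -0.013 to 0.65 for Dsc1 in LowAhR+AD against LowAhR, and -0.093 to 0.59 for Dsg1b, -0.095 to 0.14 for Pkp1 and -0.091 to 0.48 for Dsg3 in LowAhR+AD+BJ against LowAhR+AD. The causes were not tested. Deviations of samples with the same replicate number had correlations of -0.0547 to 0.167. In LowAhR+AD against Cont the same number was the best partner for replicates 1, 3 and 4 (0.155, 0.0777 and 0.109) but not for replicate 2. In LowAhR+AD+BJ against LowAhR+AD it was so for replicates 2 and 3, and in the other comparisons for none. With 4 mice per group such correlations cannot exclude that the numbers pair the mice. With the replicate number as a block 4 desmosome genes were called in LowAhR+AD against Cont, beside 20.1% of all genes, with Dsg1b added (edgeR adjusted p = 0.0444). The block gave 3 in LowAhR+AD against LowAhR (beside 11.4%) and 3 in LowAhR+AD+BJ against LowAhR (beside 6.38%). It gave 0 in LowAhR+AD+BJ against LowAhR+AD and in LowAhR against Cont (beside 0% in both). Dsg1b in LowAhR+AD against Cont was also called with DESeq2, limma voom and at least 10 counts in every library, a filter that dropped Dsc2. Intervals were widest for Dsc2 and Dsg1b, which had the lowest counts, and spread between mice and counting error were not separated there.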
